A study of Mus musculus with 9 samples.

Results

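The comparison set 3 libraries of primary mouse hepatocytes labelled 4-Octyl Itaconate (4OI) against 3 libraries labelled Bobcat339, out of 9 RNA sequencing libraries in the series, across all 56691 genes of the deposited count table. The remaining 3 libraries, labelled DMSO (the solvent), were used as a reference level only. All 9 libraries came from hepatocytes that were left 4 h to attach, were given fresh DMEM for 24 h and were lysed in Trizol. The submitters' treatment note also mentions Remodelin hydrobromide, which inhibits NAT10, without tying it to any library, so it cannot be told whether it was present in either group. The study's methods name male C57BL/6 mice for its animal work. The labels give no dose or duration for either agent. The study's methods describe a culture of hepatocytes taken after partial hepatectomy and kept with Bobcat339 for a day at a stated dose, without saying that these are the sequenced libraries, and no dose of 4OI was found there, so it cannot be told whether the cells came from regenerating livers. The 4OI titles all carry the same hepatocyte number while the Bobcat339 titles carry none, and no label states that the libraries of a group came from separate mice or cultures. P-values therefore measure only the spread between these libraries, which may be technical, and any difference between cell preparations cannot be told apart from the difference between treatments.

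Bobcat339 is a small molecule inhibitor of the TET enzymes, which oxidize methylated cytosine in DNA. 4OI is a cell-permeable ester of itaconate, the metabolite that the enzyme encoded by Acod1 makes from the TCA cycle intermediate cis-aconitate, and it is best known for modifying KEAP1, which releases the transcription factor NRF2 to turn on antioxidant genes. Hepatocytes are the epithelial cells that make plasma proteins, bile and urea and hold most drug-metabolizing enzymes of the liver, and their identity rests on a network of transcription factors around HNF4A. A hepatocyte preparation can also carry sinusoidal endothelial cells, Kupffer cells (the resident macrophages of the liver), stellate cells and bile duct cells.

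Total deposited counts were between 81046789 and 81685369 in the Bobcat339 libraries and between 70876333 and 83902788 in the 4OI libraries, and the groups did not differ (exact permutation test, two-sided, p = 0.4, with 0.1 the smallest p that 3 against 3 allows). Levels are given as CPM, the count of a gene scaled to a common library total, after TMM scaling. The 4OI libraries stood far from the other 6 on the first principal component, which held 85.9% of the variance. In the Bobcat339 and DMSO libraries the hepatocyte label fitted the markers, since 31 plasma protein genes took 7.53 to 8.10% of all counts with Bobcat339. In the libraries labelled 4OI the same 31 genes took only 0.569 to 0.609%, while 17 pan-macrophage genes took 0.648 to 0.661% against 0.0330 to 0.0355% and 16 pan-endothelial genes 0.507 to 0.530% against 0.0131 to 0.0159%. By these markers the 4OI libraries go against a label of hepatocytes alone, and they are called here by their treatment label. In bulk RNA, fewer cells of a type and less RNA per cell cannot be told apart, and the part of these marker shifts in each result below was not tested.

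Of 18379 genes that passed the filter on low counts, 5688 (30.9%) were higher and 5750 (31.3%) were lower with 4OI than with Bobcat339, so that 62.2% differed in either direction (edgeR quasi-likelihood test, Benjamini-Hochberg adjusted p under 0.05). These shares are the background for every count of called list members given below. A difference of at least 4-fold was found for 2365 of the higher and 2059 of the lower genes, and of at least 16-fold for 1266 and 904. The median log2 fold change over all genes tested was -0.00083. With scaling by library size alone it moved to 0.12, and 6274 genes were then higher and 5047 lower. For 5109 of the higher genes (89.8%) and 4916 of the lower genes (85.5%) the DMSO level lay nearer to Bobcat339 than to 4OI. DMSO lay nearer to 4OI for the remaining 579 higher and 834 lower genes, with metallothioneins among the lower ones.

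**Figure D1:**
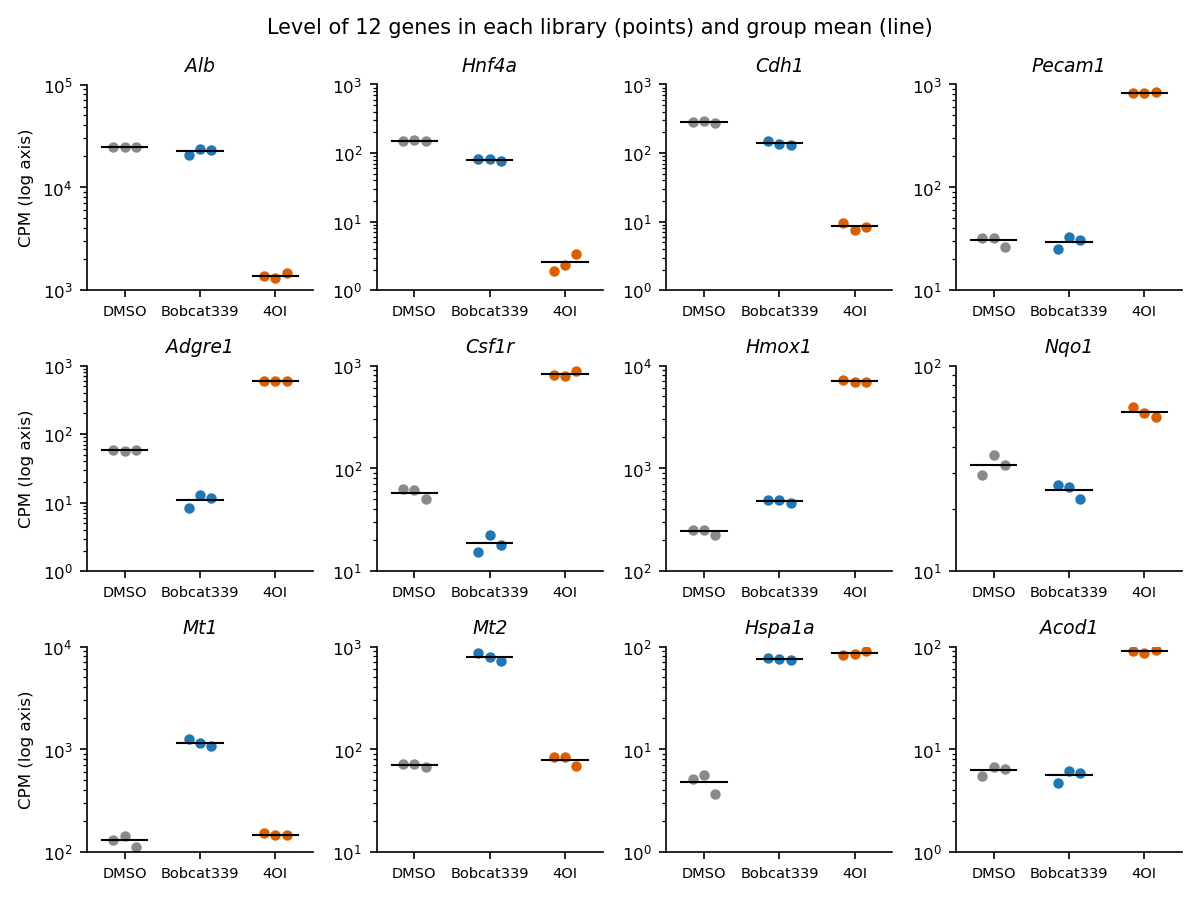
Level of 12 genes in each library as CPM on a log axis, with DMSO in gray, Bobcat339 in blue, 4OI in orange and a line at the group mean. Alb, Hnf4a and Cdh1 were low in all 3 4OI libraries, Pecam1, Adgre1, Csf1r, Hmox1, Nqo1 and Acod1 were high in them, Mt1 and Mt2 were high in the Bobcat339 libraries only, and Hspa1a was above DMSO in both groups.

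Genes that define the hepatocyte were lower with 4OI almost throughout. Alb, which encodes serum albumin, was at 20516, 23719 and 23273 CPM in the Bobcat339 libraries and at 1383, 1331 and 1473 CPM in the 4OI libraries. The DMSO libraries held 24493 to 24698 CPM, so only the 4OI libraries were low. The difference was 16.1-fold (log2 fold change -4.01, SE 0.08, edgeR adjusted p = 6.6e-11). All 31 plasma protein genes were lower, with a median log2 fold change of -3.66 against -0.00083 over all genes tested, and their summed level was 14.5-fold lower. They did not fall by the same amount. Apob, the protein of very low density lipoprotein, went from 2106 ± 503 to 33.7 ± 0.987 CPM (SD, n = 3 each), a 62.5-fold difference. Fgg, the fibrinogen gamma chain, went from 739.6 ± 10.7 to 136 ± 4.39 CPM, which was 5.46-fold and the smallest difference on the list.

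The transcription factors of the hepatocyte were lower as well. Hnf4a, the nuclear receptor at the center of the network, read 81.8, 82.7 and 75.9 CPM with Bobcat339 and 1.95, 2.36 and 3.38 CPM with 4OI. DMSO stood at 149.9 to 154 CPM, above both groups. The log2 fold change was -4.96 (SE 0.17, edgeR adjusted p = 1.3e-09). Of 19 such factors tested, 15 were lower and 2 higher, with a median log2 fold change of -4.47. The pioneer factors Foxa2 and Foxa1, which open liver enhancers, were 91.9-fold and 88.9-fold lower, at 0.243 ± 0.0311 and 0.384 ± 0.141 CPM with 4OI. The C/EBP factors went the other way: Cebpa was 1.75-fold higher (74.6 ± 8.24 to 130.4 ± 6.01 CPM, edgeR adjusted p = 8.2e-05) and Cebpb 1.24-fold higher (138 ± 14.2 to 171 ± 6.37 CPM, edgeR adjusted p = 0.046). Both are also expressed in myeloid cells, and the call on Cebpb was lost with RLE scaling, without a filter and without any 1 of 6 libraries, the 3 4OI libraries included, while it held with library size only and with DESeq2. Nr5a2, which regulates bile acid genes, was not called at 19.1 ± 2.68 and 16.6 ± 2.82 CPM (95% interval of the log2 fold change -0.55 to 0.15).

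**Figure D2:**
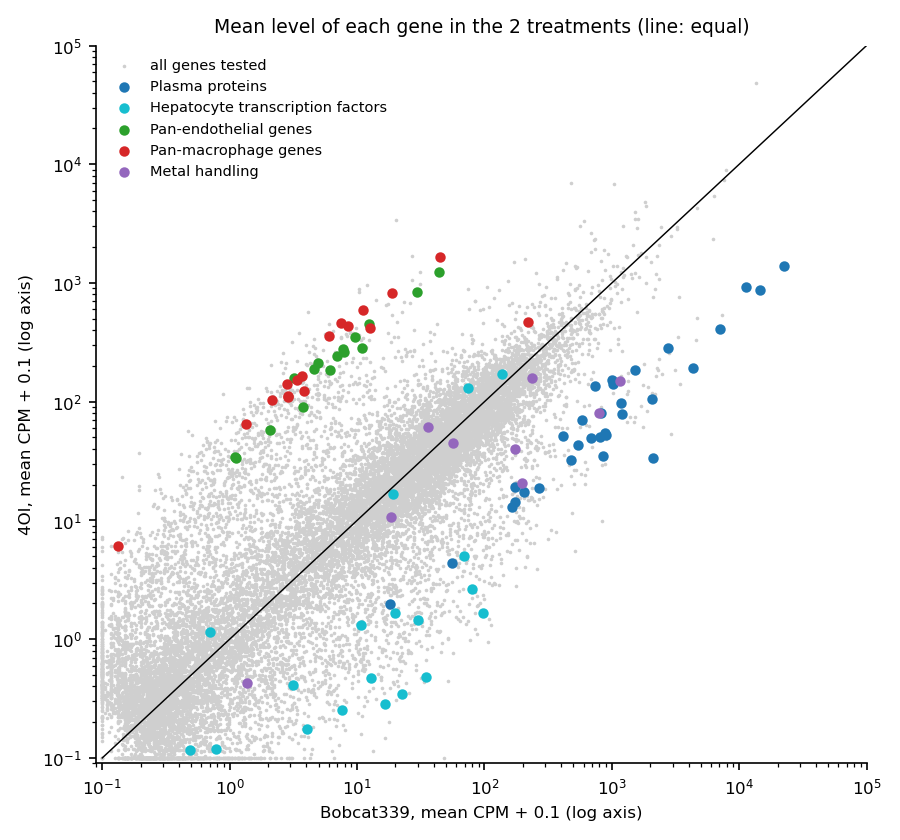
Mean level of each gene tested in the 3 4OI libraries against the 3 Bobcat339 libraries, as CPM plus 0.1 on log axes, with 5 gene lists in color and a line where both are equal. The plasma protein genes (blue) lie below the line across the whole range of levels and the pan-endothelial (green) and pan-macrophage (red) genes lie above it.

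Genes that hold epithelial cells together were also lower. Of 18 keratin and junction genes, 16 were lower and 2 higher, with a median log2 fold change of -4.06. Dsp, the desmoplakin that anchors keratin to desmosomes, was at 438, 502 and 599 CPM with Bobcat339 and at 6.47, 5.1 and 4.58 CPM with 4OI, a 95.3-fold difference (log2 fold change -6.57, SE 0.17, edgeR adjusted p = 2.1e-10). The desmosomal cadherin Dsc2 was 91.3-fold, the tight junction claudin Cldn2 74.3-fold and Cldn3 43.5-fold lower. E-cadherin (Cdh1), the adhesion protein of epithelia, fell from 139 ± 9.48 to 8.54 ± 1.03 CPM, and Krt18, the keratin of simple epithelia, from 2465 ± 244 to 170.1 ± 8.99 CPM. The 2 exceptions were Gja1, the connexin 43 gap junction protein found in endothelial and mesenchymal cells among others, at 7.09 ± 1.53 against 162 ± 7.42 CPM, and Tjp1, a tight junction scaffold that endothelial cells also use, which was 1.67-fold higher.

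Metabolic genes of the liver were lower in each pathway examined, with a few members apart. Among 20 drug-metabolizing P450 genes, 16 were lower and 1 higher (median log2 fold change -3.69). Cyp1a2, which metabolizes caffeine, fell from 185 ± 12.3 to 5.53 ± 0.176 CPM, and Cyp2a5 from 839 ± 25.4 to 29.5 ± 2.45 CPM. The higher one was Cyp4b1, an enzyme best known from the lung, at 3.65, 4.37 and 4.41 CPM with Bobcat339 and at 207, 216 and 214 CPM with 4OI, a 51.2-fold difference with no overlap. Of 15 bile acid genes, 14 were lower and 0 higher. Abcc2, the canalicular export pump for bilirubin conjugates, was 85.9-fold lower, and Cyp7b1 and Cyp27a1, enzymes of the alternative bile acid pathway, fell from 50.8, 51.7 and 47.6 CPM to 3.04, 2.95 and 2.33 CPM and from 151 ± 14.6 to 10.7 ± 0.754 CPM.

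Lipid synthesis was lower as a group. In cholesterol synthesis and uptake 22 of 24 genes were lower and 0 higher (median log2 fold change -2.64). Sqle, the squalene epoxidase, was at 219, 227 and 221 CPM with Bobcat339 and at 15.1, 14.4 and 14.7 CPM with 4OI, 15.1-fold lower, and the DMSO libraries lay between them at 113 to 114 CPM. In fatty acid synthesis 14 of 16 genes were lower, led by Scd1, the stearoyl-CoA desaturase of liver, which fell from 2917 ± 183 to 53.2 ± 1.12 CPM, and Mlxipl, the carbohydrate-sensing factor ChREBP, which was 44.6-fold lower. Scd2, a paralog of Scd1, was the sole higher member, at 19.6, 11.6 and 11.1 CPM against 20.2, 19.0 and 21.1 CPM, and that call did not hold when single libraries were left out.

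Genes of fatty acid oxidation were mostly lower, with some members higher. Of 22 genes, 16 were lower and 4 higher, with a median log2 fold change of -1.17. Cpt1a, the enzyme that admits long-chain fatty acids to mitochondria, was at 86.5, 90.0 and 88.9 CPM with Bobcat339 and at 248, 243 and 257 CPM with 4OI (2.82-fold, edgeR adjusted p = 6.2e-09), and DMSO held 84.7 to 87.9 CPM. The lipid droplet protein Plin2 was 1.88-fold and the acyl-CoA thioesterase Acot1 3.57-fold higher. The omega-hydroxylase Cyp4a10, also a PPAR alpha target, was 15.7-fold lower at 347 ± 11.5 against 22.0 ± 0.516 CPM.

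In the urea cycle and amino acid breakdown 19 of 24 genes were lower and 3 higher (median log2 fold change -2.29). Nags, which makes the activator of the first urea cycle enzyme, was 47.1-fold lower, while that enzyme itself, Cps1, was 4.73-fold lower. Glul, the glutamine synthetase, was at 89.7, 83.7 and 79.2 CPM with Bobcat339 and at 692, 714 and 714 CPM with 4OI, 8.39-fold higher (log2 fold change 3.07, SE 0.08, edgeR adjusted p = 2.6e-10). Among hepatocytes Glul is confined to those of the pericentral zone, and which cells its RNA came from was not tested. Of the 14 pericentral genes tested 12 were lower. Among them were Tbx3, a factor of that zone, at 7.5 ± 0.219 against 0.156 ± 0.113 CPM, and Gulo, of vitamin C synthesis, which was 24.1-fold lower. Of 15 periportal genes 10 were lower and 3 higher, the largest of the latter being Ctsc, a lysosomal protease that immune cells also make, at 33.0 ± 2.63 against 308 ± 10.4 CPM. The median of the pericentral list was -3.74, or -3.51 with genes absent from a group set at their bound, and that of the periportal list -2.24. Of 14 acute phase genes 11 were lower and 2 higher: Lcn2, an iron-siderophore carrier, was 20.1-fold lower, the interleukin 1 antagonist Il1rn 4.02-fold higher, and Saa3, a serum amyloid that macrophages also make, was not called (18.6 ± 2.81 and 19.0 ± 1.17 CPM, 95% interval -0.25 to 0.32).

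Many enzymes of central metabolism exist in a liver form and in forms used by other tissues. Over 17 such steps 14 liver forms were lower and 3 higher (median log2 fold change -2.38), and of 27 other forms 15 were higher, 6 lower and 6 not called (median 1.30). Among all genes tested 30.9% were higher and 31.3% lower. The share of each form in the summed level of its step was taken per kb of exon. In glycogen synthase the share of the liver form Gys2 went from 68.5% ± 4.55 to 2.85% ± 0.813 (SD, n = 3), and in glycogen phosphorylase that of Pygl from 69.8% ± 1.40 to 22.8% ± 2.03. Pyruvate kinase was already mostly Pkm (84.5% ± 0.770) with Bobcat339 and was 99.9% ± 0.0141 Pkm with 4OI. In several other steps, too, the form listed as the liver one was already the smaller part with Bobcat339, such as Gsta3 at 4.71% ± 0.351 and Slc2a2 at 5.25% ± 0.913. Elsewhere, as in the glycogen steps above, it was the larger part. Gstp1, counted as an other form beside Gsta3, was itself lower with 4OI (log2 fold change -2.17). Its mean was 959 CPM per kb with DMSO, 774 with Bobcat339 and 172 with 4OI. Which form counts as the liver one was set by the list and was not tested. Among the enzymes that phosphorylate glucose, Hk3, a form typical of myeloid cells, went from 7.16% ± 3.14 to 59.3% ± 1.44 of the summed level. The 3 higher liver forms were Cpt1a, Arg1 and Pck1, and the last of these was low in every library (0.354 to 0.928 CPM with Bobcat339, 2.08 to 3.31 CPM with 4OI, 3.8 to 4.34 CPM with DMSO). Arg1 was low as well, at a mean of 3.30 CPM per kb with Bobcat339, 5.31 with 4OI and 5.35 with DMSO. Its DMSO level thus lay at that of 4OI, and its call was lost in a test against a 2-fold minimum.

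**Figure D3:**
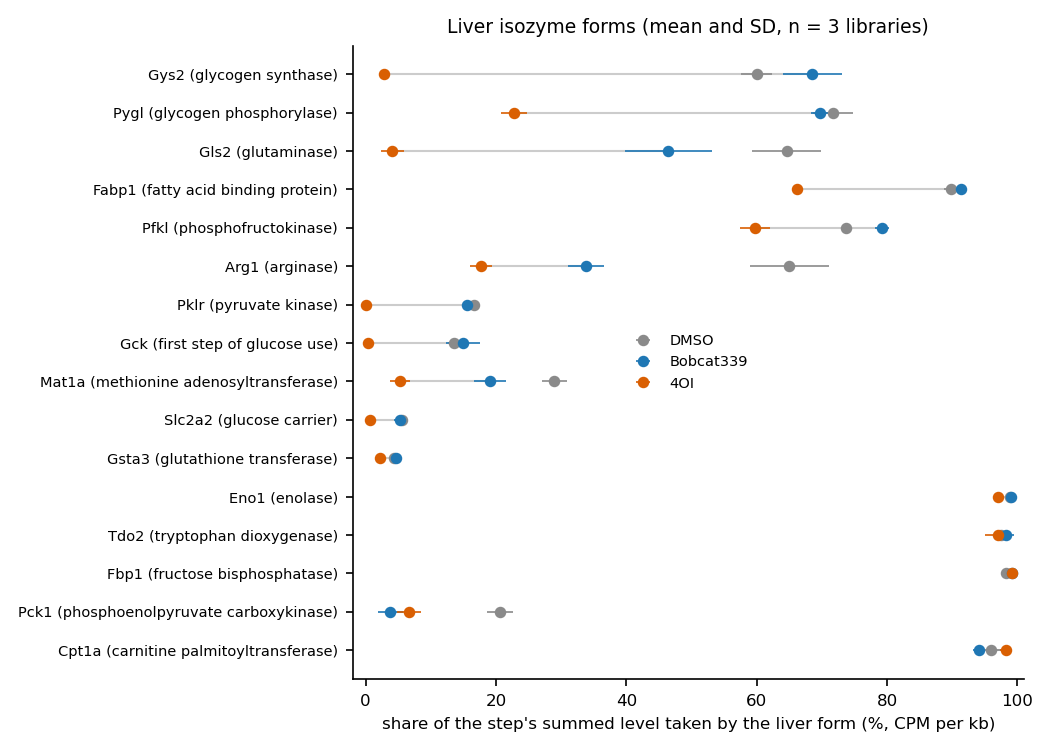
Share of the summed level (CPM per kb of exon) that the liver form takes in each of 16 of the 17 metabolic steps (1 is not reported here), as the mean with its SD over 3 libraries, with DMSO in gray, Bobcat339 in blue and 4OI in orange. The share was lower with 4OI than with Bobcat339 for Gys2 (2.85 against 68.5%) and Pygl (22.8 against 69.8%), and close to equal for Fbp1, Tdo2 and Eno1, whose steps rest on nearly 1 form.

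Endothelial genes were higher with 4OI without exception on the lists used. All 16 pan-endothelial genes were higher, between 4.61 and 5.65 on the log2 scale (median 5.08). Pecam1, the adhesion molecule CD31, was at 25.4, 32.8 and 30.8 CPM with Bobcat339 and at 831, 823 and 853 CPM with 4OI, 28.2-fold higher (log2 fold change 4.82, SE 0.13, edgeR adjusted p = 2.0e-10). DMSO held 26.6 to 32.6 CPM, which overlapped Bobcat339. Kdr, the main VEGF receptor, was at 9.6 ± 1.15 against 352 ± 4.2 CPM, and Erg, a transcription factor that keeps endothelial identity, was 50.3-fold higher. All 15 sinusoidal endothelial genes tested were higher too (median 4.45), among them the scavenger receptor Stab2 at 10.5 ± 0.72 against 213 ± 5.58 CPM and Lyve1, the hyaluronan receptor, at 3.48 ± 0.705 against 56.0 ± 2.33 CPM.

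Macrophage genes were higher too. All 17 pan-macrophage genes were higher with a median log2 fold change of 5.54. Adgre1, the F4/80 antigen, was at 8.3, 12.9 and 11.8 CPM with Bobcat339, at 591, 599 and 594 CPM with 4OI and at 56.5 to 59.4 CPM with DMSO, so the 3 groups were apart from each other. It was 54.0-fold higher with 4OI than with Bobcat339 (log2 fold change 5.75, SE 0.16, edgeR adjusted p = 2.6e-10). Csf1r, the receptor for the growth factor CSF1, was 44.2-fold higher, and the lysosomal protein Cd68 2.15-fold. Of 14 Kupffer cell genes 12 were higher, with a median of 5.26. Cdh5 was among the 14 and also on the pan-endothelial list. Clec4f, the lectin that marks mouse Kupffer cells, was at 0.477, 1.13 and 1.16 CPM against 48.1, 46.6 and 47.8 CPM, and Vsig4, a complement receptor, was 129.5-fold higher. The Kupffer list's lower member was C6, a complement protein that hepatocytes also make, at 31.7 ± 2.46 against 4.47 ± 0.44 CPM.

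Genes typical of macrophages and other blood cells were also among the largest single differences. Mmp12, the macrophage elastase, was at 6.14, 27.0 and 26.9 CPM with Bobcat339 and at 3487, 3496 and 3278 CPM with 4OI. That is 171-fold (log2 fold change 7.42, SE 0.52, edgeR adjusted p = 3.4e-07). Among the 12 genes with the largest higher log2 fold change at 10 CPM or more were also Hpgds, the prostaglandin D synthase of blood cells (154-fold), the signaling regulator Rgs1 (146-fold), the inhibitory receptors Cd22 (141-fold) and Cd200r1 (114-fold), and Hk3 (103-fold). The first on that list was Evi2, at 0, 0.127 and 0 CPM with Bobcat339 and at 4.36, 32.0 and 32.4 CPM with 4OI. Its Bobcat339 counts were under the floor of 12 deposited counts per library, so no fold is given, and 1 of the 4OI libraries stood far below the other 2. At the other end were Bmp8b, a secreted growth factor (125-fold lower), Mfsd2a, a carrier of lysophospholipids (25.5 ± 1.06 against 0.253 ± 0.0824 CPM), the transporters Abcc12 (94.8-fold) and Abcc2, Gldc of the glycine cleavage system (87.3-fold), the transcription factor Sall1 (84.4-fold) and the proprotein convertase Pcsk6 (78.7-fold).

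Markers of other cells moved less evenly. All 20 stellate cell and fibroblast genes were higher, but with a wide range (0.47 to 6.03, median 2.99) and low levels: Rgs5, of pericytes, was at 1.27 ± 0.296 against 31.6 ± 0.311 CPM, Col1a1, the fibrillar collagen chain, at 3.66 ± 0.914 against 13.9 ± 2.44 CPM, and the intermediate filament gene Des at 2.07 ± 0.0438 against 4.44 ± 0.535 CPM. Of 10 monocyte genes only 7 passed the filter, without Ccr2, Cx3cr1 and Ms4a4c. The median of the 7 was 1.36, or 0.63 with genes absent from a group set at their bound. Of these 7 genes 4 were higher and 1 lower. The lower one was Fn1, the fibronectin that hepatocytes secrete into plasma, at 2069 ± 53.5 against 118 ± 3.46 CPM. Of 20 lymphocyte and granulocyte genes only 8 passed the filter and 5 were higher, and the T cell marker Cd3e was at 0.137 CPM or less in every library. Ccr3, an eosinophil receptor, had no count in any Bobcat339 library and 5.96 to 7.37 CPM with 4OI, which is at least 44.5-fold higher against a floor of 12 deposited counts per library. In MHC class II presentation 7 of 8 genes were higher (median 2.95), led by the protease Ctss at 8.45 ± 0.766 against 436 ± 6.41 CPM and the invariant chain Cd74 at 4.72 ± 0.606 against 138 ± 9.23 CPM. MHC class I genes, which nearly all cells express, counted 3 higher and 4 lower of 10 (median -0.02), close to the 30.9% and 31.3% over all genes tested.

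**Figure D4:**
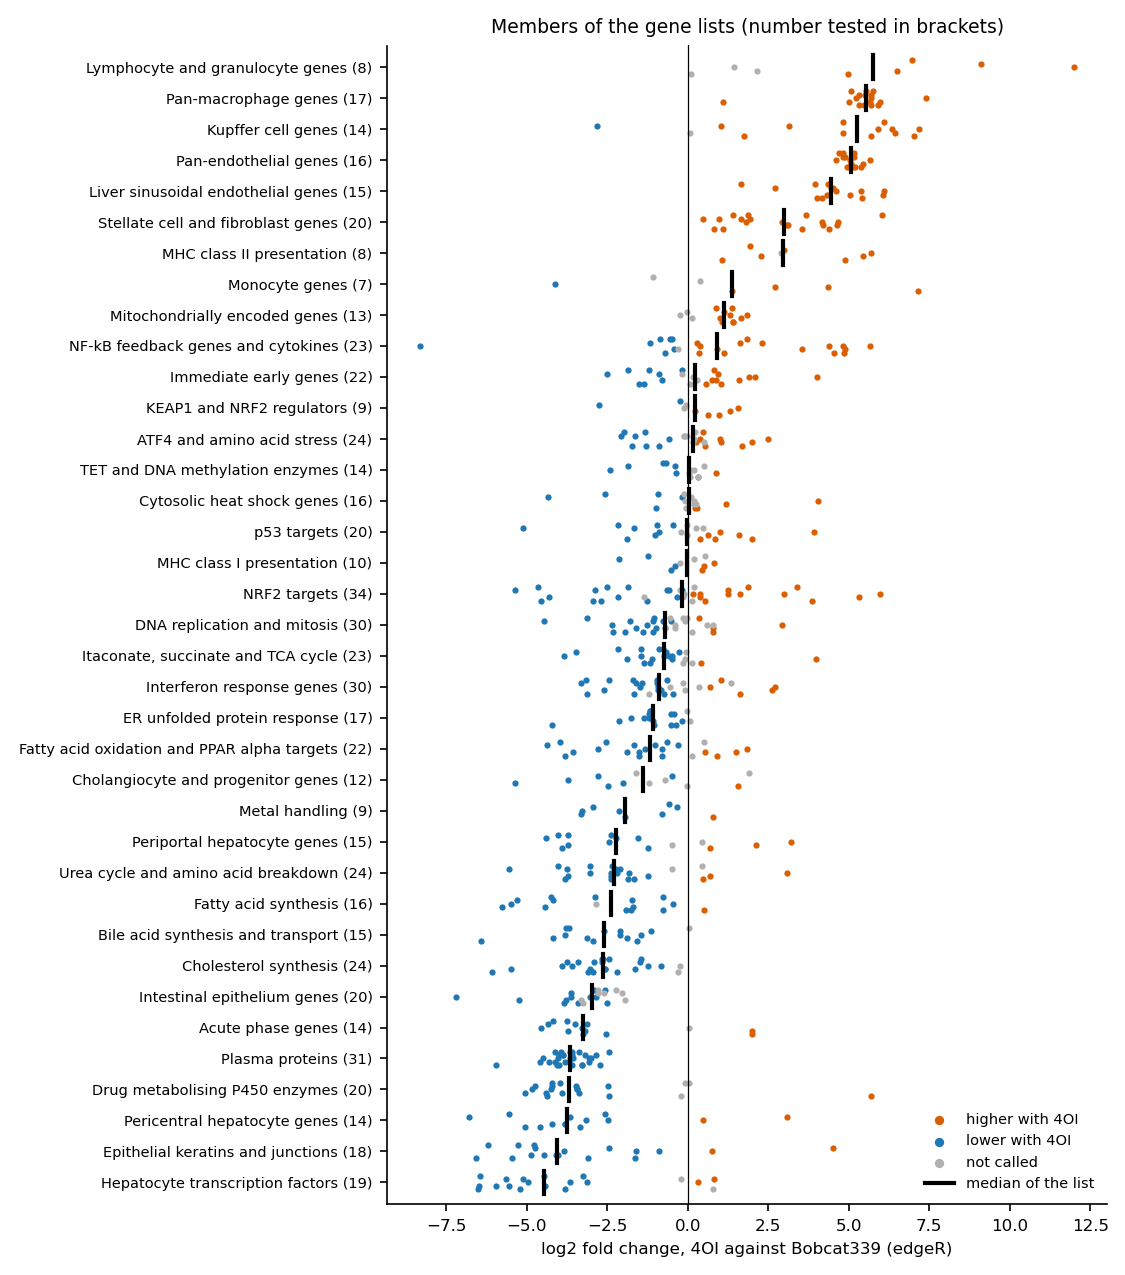
Log2 fold change of 4OI against Bobcat339 for each tested member of the 37 gene lists, sorted by the list's median (black bar), with members higher with 4OI in orange, lower in blue and not called in gray. The medians run from -4.47 for the hepatocyte transcription factors to 5.74 for the lymphocyte and granulocyte genes, of which only 8 were tested. That last median is 2.37 with genes absent from a group set at their bound. The medians of the pan-endothelial and pan-macrophage genes are 5.08 and 5.54. The NRF2 targets and the heat shock genes spread to both sides of a median near 0. Values of genes with no count in a group, such as Ccr3 and Ccl20, are fitted and are not bounds.

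Several genes of the intestinal epithelium and of bile ducts depended on a single library. Bobcat339 replicate 1 held 66 genes at 4-fold or more above both other Bobcat339 libraries (0.5 CPM added). The other 8 libraries held 1 to 6 such genes. Of the 66, 25 were called lower and 1 higher with 4OI, beside 31.3% lower and 30.9% higher over all genes tested. The 66 were picked by a high level in 1 Bobcat339 library, which by itself favors lower calls. Muc2, the mucin of goblet cells, shows the pattern with 57.8 CPM in Bobcat339 replicate 1, 6.7 and 4.13 CPM in the other Bobcat339 libraries, 4.64, 5.37 and 0 CPM with 4OI and 61.5 to 72.5 CPM with DMSO. In the other direction 4OI replicate 3 stood apart, with 19 genes at 4-fold or more below both other 4OI libraries, against 1 to 5 in the other 8. The intestinal genes took 0.000223% of its counts, against 0.00244 and 0.00257% in 4OI replicates 1 and 2. Of 20 intestinal genes 12 were lower with 4OI (median -2.96), beside 31.3% over all genes tested. Without Bobcat339 replicate 1 only 5 intestinal genes were called lower. The bile duct genes Krt19 and Epcam were not called, at 16.1, 2.1 and 1.87 CPM and at 14.7, 1.96 and 1.83 CPM with Bobcat339, and Epcam was higher with 4OI once that library was left out (log2 fold change 1.00, edgeR adjusted p = 0.006). Of the 12 bile duct and progenitor genes tested 6 were lower, 1 higher and 5 not called (median -1.39). Over all genes tested 31.3% were lower and 30.9% higher. Without Bobcat339 replicate 1, 4 bile duct and progenitor genes were lower and 3 higher. Sox9, a progenitor and bile duct factor, was not high in that library alone and was 41.2-fold lower at 64.8, 52.1 and 60.7 against 1.48, 0.967 and 1.83 CPM.

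The NRF2 pathway, the best known target of itaconate esters, was higher in some arms and lower in others. Nfe2l2, which encodes NRF2, was at 170.1, 171 and 187 CPM with Bobcat339 and at 345, 339 and 358 CPM with 4OI (log2 fold change 0.98, SE 0.07, edgeR adjusted p = 6.6e-07). Its repressor Keap1 was 1.54-fold and its competitor Bach1 2.95-fold higher. The small Maf partner Mafg was 2.5-fold higher while Maff was 6.76-fold lower, at 237, 216 and 199 against 31.5, 33.8 and 31.1 CPM, with DMSO at 65.4 to 72.5 CPM. Maff thus lay above DMSO with Bobcat339 and below it with 4OI.

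Of 34 NRF2 target genes 13 were higher, 15 lower and 6 not called, beside 30.9% higher and 31.3% lower over all genes tested, with a median log2 fold change of -0.17. Hmox1, the heme oxygenase, was at 491, 491 and 457 CPM with Bobcat339 and at 7228, 6882 and 6928 CPM with 4OI, 14.6-fold higher (log2 fold change 3.87, SE 0.08, edgeR adjusted p = 7.7e-11), and DMSO held 225 to 255 CPM. The order of the 3 groups was thus DMSO, Bobcat339, 4OI with no overlap. Nqo1, the quinone reductase, was 2.38-fold higher at 24.9 ± 2.09 against 59.3 ± 3.61 CPM. Akr1b8, an aldose reductase relative, was at 26.9 ± 1.71 against 1069 ± 40.9 CPM, and the fatty acid transporter Cd36, which macrophages and endothelial cells express, at 26.8 ± 10.2 against 1675 ± 38.3 CPM. G6pdx, the entry to the pentose phosphate pathway and source of NADPH, was 10.6-fold and the glutathione conjugate pump Abcc1 8.02-fold higher. Liver glutathione transferases made up the far end: Gstm3, Gsta1 and Gsta2 were 41.3-fold, 25.2-fold and 23.3-fold lower, where reads of the near-identical Gsta1 and Gsta2 could be split either way by the counting.

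The enzymes of glutathione and thioredoxin diverged inside the list. Gclm, the modifier subunit of the enzyme that limits glutathione synthesis, was at 264, 272 and 263 CPM with Bobcat339 and at 979, 972 and 968 CPM with 4OI. Its catalytic partner Gclc was at 622, 670.0 and 685 against 264, 276 and 284 CPM. So the subunits moved in opposite directions, by 3.65-fold up and 2.4-fold down (edgeR adjusted p = 8.0e-10 and 8.0e-08). Slc7a11, the cystine importer that feeds the same pathway, was 1.5-fold lower, Txnrd1, the thioredoxin reductase, 1.31-fold higher, and Srxn1, the sulfiredoxin, was not called (2344 ± 105 and 2106 ± 17.8 CPM, 95% interval -0.30 to -0.01 before adjustment). These 5 genes with G6pdx and Abcc1 were named after their values were seen. The core of the antioxidant response element (ARE), TGACNNNGC on either strand, was found in the RefSeq promoters (250 bases before to 50 after the start) of 8 of the 29 NRF2 targets that had an entry (27.6%), against 12.4% of all 32851 promoters and 14.0% of all genes with an entry. It was also in 3 of 7 metal handling promoters (42.9%), so the match is not particular to the NRF2 targets. Gclm was one of them, and its promoter is shown because it was the higher of the 2 glutathione synthesis genes, at chr3:122245307-122245606 on the plus strand of GRCm38.p6, with the core in capitals (read on the opposite strand).
Gclm: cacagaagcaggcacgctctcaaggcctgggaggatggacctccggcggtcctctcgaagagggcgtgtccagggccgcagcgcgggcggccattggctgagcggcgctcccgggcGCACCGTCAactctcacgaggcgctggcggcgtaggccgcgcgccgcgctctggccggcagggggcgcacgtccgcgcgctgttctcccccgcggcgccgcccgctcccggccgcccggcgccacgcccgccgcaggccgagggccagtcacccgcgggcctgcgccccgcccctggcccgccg

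Metal handling genes separated the 2 agents in the other direction. Mt1, a metallothionein that binds zinc and copper, was at 1252, 1147 and 1075 CPM with Bobcat339, at 154, 146 and 148 CPM with 4OI and at 113 to 145 CPM with DMSO. Mt2 was at 871, 792 and 728 CPM with Bobcat339, at 85.1, 85.0 and 68.4 CPM with 4OI and at 67.2 to 72.3 CPM with DMSO. Only the Bobcat339 libraries were high, and the 4OI libraries lay close to DMSO. The differences between 4OI and Bobcat339 were -2.96 (SE 0.10) for Mt1 and -3.33 (SE 0.11) for Mt2 on the log2 scale (edgeR adjusted p = 1.3e-09 and 8.5e-10). Of 9 metal handling genes 8 were lower with 4OI and 1 higher, beside 31.3% and 30.9% over all genes tested. Slc30a1, which exports zinc from the cell, was at 218, 237 and 251 CPM with Bobcat339, at 156, 155 and 161 CPM with 4OI and at 41.9 to 47.5 CPM with DMSO, so that it was above DMSO in both groups. Slc39a4, a zinc importer, was 9.64-fold lower at 199 ± 16.9 against 20.6 ± 1.5 CPM, with DMSO on the Bobcat339 side at 210.4 to 273 CPM. The importer Slc39a10 was the higher member, by 1.72-fold.

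The core of the metal response element (MRE), TGCACNC or TGCGCNC on either strand, was found in the RefSeq promoters of 5 of the 7 metal handling genes with an entry (71.4%), against 25.7% of all 32851 promoters and 28.2% of all genes with an entry. The promoters of Mt1 (chr8:94178839-94179138) and Mt2 (chr8:94172368-94172667), both on the plus strand of GRCm38.p6, are shown because these genes set the Bobcat339 libraries apart, with the 3 and 4 matches in capitals. A match describes these letters only and is not a measured site.
Mt1: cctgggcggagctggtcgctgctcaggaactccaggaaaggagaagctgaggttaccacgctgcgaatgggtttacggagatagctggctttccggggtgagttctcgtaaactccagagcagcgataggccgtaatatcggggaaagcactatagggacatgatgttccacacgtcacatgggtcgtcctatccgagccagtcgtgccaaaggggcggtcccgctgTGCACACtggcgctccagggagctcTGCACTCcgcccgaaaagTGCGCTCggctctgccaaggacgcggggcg
Mt2: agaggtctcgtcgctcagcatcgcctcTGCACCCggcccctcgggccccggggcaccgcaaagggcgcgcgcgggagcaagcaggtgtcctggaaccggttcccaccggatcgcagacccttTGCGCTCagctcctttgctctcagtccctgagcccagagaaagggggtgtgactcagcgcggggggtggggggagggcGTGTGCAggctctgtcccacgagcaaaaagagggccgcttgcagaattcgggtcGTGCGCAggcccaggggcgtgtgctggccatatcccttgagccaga

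Heat shock genes did not separate the groups as a list, with 4 higher, 5 lower and 7 not called of 16 (median 0.03). Over all genes tested 30.9% were higher and 31.3% lower. Hspa1a, the inducible HSP70, was at 75.3 ± 1.75 CPM with Bobcat339 and at 81.8, 84.8 and 90.6 CPM with 4OI, and its near-identical copy Hspa1b at 113, 117 and 114 against 128, 126 and 142 CPM. Neither was called (95% intervals of the log2 fold change -0.10 to 0.47 and -0.01 to 0.42), and reads could be split between the copies. Both lay far above the DMSO libraries, which held 3.65 to 5.68 CPM of Hspa1a and a mean of 13.2 CPM of Hspa1b. The small heat shock genes differed: Hspb8 and Hspb1 were 20.0-fold and 5.87-fold lower with 4OI, while the crystallin Cryab was 16.6-fold higher at 2.93 ± 0.375 against 48.7 ± 0.996 CPM.

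In the unfolded protein response of the endoplasmic reticulum 15 of 17 genes were lower and 0 higher (median -1.08). Among all genes tested 31.3% were lower and 30.9% higher. Hspa5, the chaperone BiP, was at 3141, 3285 and 3647 CPM with Bobcat339, at 750.5, 769 and 779 CPM with 4OI and at 1607 to 2174 CPM with DMSO. Bobcat339 was thus above DMSO and 4OI below it, and the difference between them was 4.38-fold (edgeR adjusted p = 5.3e-08). The disulfide isomerase Pdia4, by contrast, had overlapping levels with Bobcat339 and DMSO and was 3.37-fold lower with 4OI. Of 24 genes of the ATF4 and amino acid response 9 were higher and 8 lower (median 0.17), beside 30.9% and 31.3% over all genes tested. The cationic amino acid importer Slc7a1 was 5.61-fold, the stress hormone Gdf15 3.99-fold and the leucine importer Slc7a5 3.21-fold higher, and Atf5 was 3.97-fold lower. Of 22 immediate early genes 10 were higher and 8 lower, beside the same 30.9% and 31.3%. Fosb and Egr1, which respond to growth factors and stress, were 5.74-fold and 3.59-fold lower with 4OI, where Bobcat339 (12.3 to 13.8 and 127 to 139 CPM) lay above DMSO (1.32 to 2.22 and 41.5 to 50.9 CPM). Egr2 was 16.3-fold and Myc 2.06-fold higher.

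Cytokine genes were mostly higher and interferon response genes mostly lower. Of 23 NF-kB feedback genes and cytokines 15 were higher and 7 lower (median 0.89), beside 30.9% and 31.3% over all genes tested. Tnf was at 0.683, 0.433 and 0.354 CPM with Bobcat339 and at 14.5, 14.7 and 14.2 CPM with 4OI (29.5-fold), the chemokine Ccl3 was 50.6-fold and the prostaglandin synthase Ptgs2 28.6-fold higher. Il6, the cytokine that primes hepatocytes in liver regeneration, stayed low at 0.206, 0.267 and 0.455 against 4.3, 2.78 and 3.91 CPM (log2 fold change 3.56, SE 0.74, edgeR adjusted p = 0.0017). Not all chemokines followed. Ccl2, which draws monocytes, was 2.26-fold lower, and Ccl20, which draws lymphocytes, had no count in any 4OI library against 0.379 to 0.606 CPM, at least 3.53-fold lower. Stat3, the mediator of IL-6 signals, was at 358, 352 and 353 against 175, 168 and 179 CPM, with DMSO at 187 to 212 CPM.

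Of 30 interferon response genes tested 19 were lower and 5 higher (median -0.89), beside 31.3% and 30.9% over all genes tested. The interferon-induced chemokines Cxcl9 and Cxcl10 were 9.92-fold and 8.93-fold lower, and Usp18, which dampens the interferon receptor, 8.68-fold. Oas1a, a sensor of double-stranded RNA, was the exception with the largest value, 6.53-fold higher at 4.29 ± 0.892 against 28.0 ± 2.04 CPM.

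Acod1, whose product forms itaconate and which activated macrophages express, was at 4.68, 6.17 and 5.95 CPM with Bobcat339 and at 90.4, 86.0 and 92.1 CPM with 4OI (log2 fold change 4.00, SE 0.13, edgeR adjusted p = 7.6e-10). DMSO held 5.56 to 6.69 CPM. Of 23 genes of itaconate, succinate and TCA cycle metabolism 17 were lower and 2 higher (median -0.74). Over all genes tested 31.3% were lower and 30.9% higher. Pcx, the pyruvate carboxylase that feeds gluconeogenesis, was 11.1-fold and the cytosolic isocitrate dehydrogenase Idh1 1.69-fold lower. Sugct, a mitochondrial CoA transferase, was 14.3-fold lower at 9.03 ± 1.02 against 0.634 ± 0.399 CPM.

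RNA encoded by the mitochondrial genome took a larger share of the 4OI libraries. The 13 protein-coding mitochondrial genes took 7.52, 7.97 and 7.39% of counts with 4OI, 2.15, 2.48 and 2.89% with Bobcat339 and 4.30 to 5.38% with DMSO, so the groups did not overlap (exact permutation test, two-sided, p = 0.1, the smallest that 3 against 3 allows). Of the 13 genes 10 were higher and 0 lower, beside 30.9% and 31.3% over all genes tested. The gene mt-Co1, for a subunit of cytochrome oxidase, was at 11654, 14218 and 15028 against 49522, 50818 and 46048 CPM (3.58-fold). The complex I genes mt-Nd5, mt-Nd6 and mt-Nd4l were not called, with 95% intervals of -0.50 to 0.04, -0.30 to 0.24 and -0.27 to 0.52.

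The TET genes, whose products Bobcat339 inhibits, were compared next. Tet3 was at 128, 138 and 146 CPM with Bobcat339 and at 169, 174 and 177 CPM with 4OI, 1.26-fold higher (edgeR adjusted p = 0.002), and both groups were above DMSO (64.4 to 67.7 CPM). Tet2 was not called at 9.91, 10.4 and 16.1 against 13.4, 15.1 and 16.6 CPM (95% interval -0.12 to 0.73), and Tet1 had at most 0.101 CPM in any library and was not tested. Among 14 genes of DNA methylation and its removal 2 were higher and 6 lower (median 0.05), beside 30.9% and 31.3% over all genes tested. Uhrf1, which guides methylation after replication, was 3.62-fold lower at 9.99 ± 1.19 against 2.76 ± 0.585 CPM. Nat10, the target of Remodelin, was not called (55.6 ± 3.32 and 59.3 ± 1.12 CPM, 95% interval -0.07 to 0.26).

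Of 30 genes of DNA replication and mitosis 16 were lower and 4 higher with 4OI (median -0.71). Over all genes tested 31.3% were lower and 30.9% higher. Ccne1, the cyclin of S phase entry, was 8.83-fold and Rrm2, which makes deoxynucleotides, 5.01-fold lower. Ccnd1, the cyclin of G1, was higher at 4.37, 6.49 and 6.44 against 43.3, 43.8 and 45.5 CPM (7.66-fold). Mki67, a marker of cycling cells, was at 1.56, 1.81 and 2.97 against 3.24, 2.95 and 4.78 CPM, where the groups overlapped and the call (edgeR adjusted p = 0.036) was lost without any of several libraries. Among 20 p53 targets 7 were higher and 8 lower (median -0.01), beside 30.9% and 31.3% over all genes tested. They ran from Perp, a desmosomal protein of epithelia (34.8-fold lower), to Pmaip1, the pro-apoptotic Noxa (15.2-fold higher at 1.93 ± 0.658 against 29.5 ± 1.16 CPM).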

How the data were processed

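Processed counts were taken from the table of 56691 mouse genes and 9 libraries that the authors deposited. By the submitters' processing notes, CASAVA 1.8, HISAT2 2.0.5 and featureCounts 1.5.0-p3 were used (genome build: not given in the sources used here). Expected counts as deposited are whole numbers, but 43.7 to 45.6% of the values from 4 to 40 are multiples of 4 (27.0% if even). How this excess arose is not known. If 4 counts stand for 1 read pair, 3 pairs are 12 counts, so the floor was set at 12 counts per library, and a fit on values divided by 4 was added after seeing the data. The 95% intervals of log2 fold changes come from the fit and cover the spread between these libraries only.

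The main test was the quasi-likelihood test of edgeR 4.0.16 in R 4.3.3 (TMM, filterByExpr, 1 fit over 9 libraries, contrast 4OI minus Bobcat339, two-sided, Benjamini-Hochberg adjustment over 18379 genes, adjusted p under 0.05). The common biological coefficient of variation was 0.24. Values are TMM-scaled CPM; isozymes were compared per kb of GENCODE exon. The script was tested on simulated data. Alternatives were DESeq2 1.42.0 and RLE scaling, library size only, no filter, 1 CPM in 3 libraries, the 6 libraries alone, a test against a 2-fold minimum, a replicate block and leaving out each library. Totals and mitochondrial shares were compared by exact permutation tests. Promoters came from RefSeq (GRCm38.p6).

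The 37 gene lists (662 genes, 639 tested), the isozyme list and the members were chosen with earlier results of these data known. The lists held 687 entries, as some genes were on more than 1 list. Named genes were the 12 most higher and 12 most lower called protein-coding genes of at least 10 CPM without overlap, up to 3 called members per list and direction of at least 1 CPM (2 by level where none was called), all isozymes and a short fixed list of pathway genes, 229 in all, of which the text describes a selection. Pecam1, Kdr, Stab2, Lyve1, Adgre1, Csf1r, Cd68, Clec4f, Col1a1, Des, Fgg, Cps1, Krt18, Krt19, Epcam, Muc2, Cd3e, Nr5a2, Saa3, Gclm, Gclc, Srxn1, Txnrd1, Slc7a11, G6pdx, Abcc1, Slc30a1, Hspa1a, Hspa1b, Ccl20, mt-Nd5, mt-Nd6 and mt-Nd4l were added after their values were seen where the rule did not name them. Of all gene IDs 91.9% had a symbol. Some genes named by the rule are not reported here.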

Additional observations from a re-analysis of the deposited data

How the results depend on the processing

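All genes called both in the reported fit and in an alternative had the same direction in both. Among the higher and lower counts (5688 and 5750), only the 2-fold minimum moved them by over 1.5 times, to 2832 and 2518, as fewer genes meet a stricter null. DESeq2 gave 5855 and 5965, RLE scaling 5660 and 5774, no filter 4960 and 6140, 1 CPM in 3 libraries 5098 and 5258, the 6 libraries alone 5695 and 5372, and values divided by 4 5611 and 5470. Leaving out each library in turn gave 5136 to 5844 higher and 5313 to 5807 lower genes. The replicate block gave 5672 and 5722, with 11052 calls shared with the fit without it; same-numbered libraries had correlations of 0.168, -0.0919 and 0.188 of their deviations over 13362 genes, so the numbers were not taken as pairs. Of single genes, Epcam (not called, -0.69) ran from -1.17 without Bobcat339 replicate 3 to 1.00, called higher, without Bobcat339 replicate 1, Tet2 was called at 0.52 without Bobcat339 replicate 3, and Clca1 and Fcgbp, both intestinal, lost their calls without Bobcat339 replicate 1 at -1.67 and -1.72; the cause was not tested. The intestinal list had 12 lower members, 5 without that library and 7 with the 6 libraries alone. Calls of genes under about 1 CPM rest on few reads.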
